A study of Mus musculus with 2 samples.

Results

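Replication-dependent histone genes encode the linker histone H1 and the core histones H2A, H2B, H3 and H4, which package DNA as it is copied. They were taken here as the transcripts annotated as protein-coding in GENCODE M21 (GRCm38) whose symbol begins with Hist1h, Hist2h, Hist3h or Hist4h, where the digit names a gene cluster. This gave 70 transcripts of 65 genes, among 49490 protein-coding transcripts of 21587 genes and 121429 transcripts of any kind with an exon value. Of 72 such transcripts in the annotation, those of Hist1h2bm and Hist1h2bh were not analysed here. The 65 genes were 6 of H1, 18 of H2A, 16 of H2B, 12 of H3 and 13 of H4. A gene entered a comparison where its exon values were above 0 in both libraries and their mean was above 1, and 65 of 65 genes did.

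Both libraries came from wild-type (WT) mouse embryonic stem cells of the line DTCM23/49 XY, depleted of feeder cells and grown in serum with leukemia inhibitory factor. The cells received 200 µM 4-thiouridine (4sU), a uridine analogue that is built into new RNA, for 10 min. RNA that carried 4sU was pulled down as labeled RNA, the RNA left behind was kept as unlabeled RNA, and each was sequenced as 1 total RNA library of replicate 1. For the latter the labels use both "preexisting" and "total", and unlabeled is the word used below. With 1 library for each kind of RNA there was no replicate check, so no difference below was tested and each value describes these libraries. Values are in the deposited unit, an abundance per length relative to the whole library that the authors call TPM and that sums to 10 times a TPM total. Depth is unknown, since read counts were not used here.

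Histone messenger RNAs are made mainly during S phase, in step with DNA replication. Most have no intron and no poly(A) tail. Their 3′ ends are cut just after a short conserved stem-loop, which is bound by the stem-loop binding protein SLBP and governs how long the RNA lasts. Embryonic stem cells cycle fast and spend much of their time in S phase.

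The libraries carried the marks of pluripotent cells. The 8 pluripotency markers summed to 10344.6 in labeled and 12606 in unlabeled RNA, led by Tdgf1 at 4574.08 and 6580.35. Nanog had 1099.42 and 2415.79 and Pou5f1 782.88 and 1198.38, while Dppa5a, at 3263.28 and 1235.41, and Zfp42, at 107.81 and 72.90, were higher in labeled RNA, as deposited and after centring. The 6 fibroblast feeder markers summed to 2.69 and 6.40, with Dcn the most abundant and Col3a1, Lum and Postn listed at 0 in both libraries. The 3 trophectoderm markers summed to 0.76 and 6.48, led by Hand1 with Elf5 listed at 0, and the 4 primitive endoderm markers to 5.50 and 7.82, led by Gata4 with Gata6 and Sox17 listed at 0. The 4 germ layer markers summed to 74.3 and 74.6, of which Pax6 gave 68.68 and 70.47.

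The first question was how much of each RNA pool the histone genes made up. Their exon values summed to 13736.1 in labeled and 20078.8 in unlabeled RNA, or 0.454% and 0.503% of the protein-coding exon signal. Of the exon values of all transcripts they were 0.162% and 0.214%, and of all exon and intron values 0.137% and 0.201%. H2B genes held the largest part, with 6119.43 in labeled and 12846.5 in unlabeled RNA. H2A genes summed to 2836.40 and 3141.52, H3 genes to 2596.61 and 1146.55, H4 genes to 1752.01 and 2406.04 and H1 genes to 431.65 and 538.19. H2B was 64.0% of the histone signal in unlabeled RNA and 44.6% in labeled RNA, while H3 was 5.71% in unlabeled and 18.9% in labeled RNA.

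In the nucleosome H3 pairs with H4 and H2A pairs with H2B, in equal numbers. On the per-length scale the summed H3 value was 1.48 times that of H4 in labeled RNA and 0.477 times that of H4 in unlabeled RNA. The summed H2B value was 2.16 times that of H2A in labeled and 4.09 times in unlabeled RNA. H2B exceeded H3 by 2.36 times in labeled and 11.2 times in unlabeled RNA. These are levels of RNA, and 31 of the 65 genes share over 50% of their 50-base stretches with another protein-coding gene, so a value of a single gene is uncertain where reads could be assigned to a near-identical copy. Within a class such sharing can move signal between its genes but leaves their sum, pseudogene copies aside. Sharing with a gene outside the class reached 36.9% of the stretches, in Hist1h2ai, and was seen in 21 genes, among them many H2A genes that share stretches with H2afj, H2afx and Trim17.

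The next question was how labeled RNA compared with unlabeled RNA for each gene. The histone classes differed in this ratio: H3 genes were higher in labeled RNA and most H2B genes were lower, as deposited and after centring on the median of all genes, and the medians of H1, H2A and H4 genes lay near that of all genes. The median log2 ratio of labeled to unlabeled exon value was -0.25 over the 65 histone genes (quartiles -0.76 and 0.28) and -0.26 over all 14127 protein-coding genes that entered (quartiles -0.94 and 0.59). The ratio compares relative abundances, so its zero is set by each library's total. Centring on the all-gene median moved every log2 ratio up by 0.26 and turned the histone median to 0.011.

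Of the 65 histone genes, 11 were at least 2-fold lower in labeled RNA, against 22.7% of all genes, and 9 were at least 2-fold higher, against 17.4% of all genes. After centring, 2 histone genes were at least 2-fold lower and 13 at least 2-fold higher, against 14.8% and 21.9% of all genes. As deposited these were 16.9% and 13.8% of the 65 genes, both below the share over all genes, and the calls were divided by class. With leakage of unlabeled into labeled RNA subtracted, 17 histone genes were at least 2-fold lower, 15 of them H2B genes, against 35.5% of all genes. Of the 11 genes lower as deposited, 10 were H2B genes and 1 was Hist1h1t. Hist1h1t, at 0.64 in labeled and 1.69 in unlabeled RNA, was above 1 only in unlabeled RNA and entered through that library. With a mean above 10 it left, and 10 of 63 histone genes were lower, all of them H2B genes. That was 15.9%, against 24.7% of all genes. Of the 9 higher as deposited, 7 were H3 genes, 1 was Hist1h2aa and 1 was Hist4h4. After centring, 1 H2B gene and Hist1h1t were at least 2-fold lower and 11 H3 genes were at least 2-fold higher.

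Short genes and genes without introns had their own background. Among 439 other single-exon protein-coding genes the median log2 ratio was 0.29, with 21.9% at least 2-fold lower and 32.8% at least 2-fold higher in labeled RNA. Among 1041 other genes under 1000 bases it was 0.90, with 8.26% lower and 46.2% higher. Among 134 other genes that were both single-exon and under 1000 bases, a comparison chosen after seeing the data, it was 0.87, with 20.9% lower and 41.0% higher. The medians of H1, H2A, H2B and H4 were below each of these 3 medians and that of H3 was above each.

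**Figure D1:**
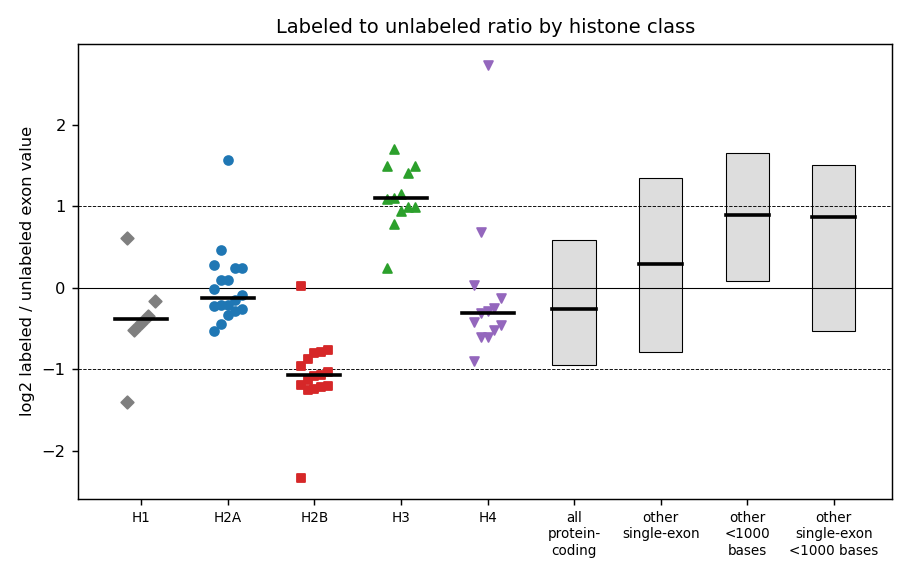
Log2 ratio of labeled to unlabeled exon value for each histone gene by class (points, with the class median as a black line) beside the quartiles and median of 4 gene groups (grey boxes): all 14127 protein-coding genes, and the 439 other single-exon genes, 1041 other genes under 1000 bases and 134 other genes that are both. The 12 H3 genes lie from 0.24 to 1.70 and 15 of 16 H2B genes lie below 0. Dashed lines mark 2-fold, and centring on the all-gene median would raise each point by 0.26, which moves the medians of H2A and of all histone genes above 0.

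H1, the linker histone, binds the DNA that enters and leaves the nucleosome. Hist1h1b had 114.48 in labeled and 163.08 in unlabeled RNA (chromosome 13, 21779883 to 21780625, log2 ratio -0.51). Hist1h1d had 115.62 and 155.48 (chromosome 13, 23553262 to 23560686, -0.43), and Hist1h1e had 102.59 and 130.48 (chromosome 13, 23620629 to 23622558, -0.35). The H1 median was -0.39 as deposited and -0.13 after centring, with 5 of 6 genes below 0 as deposited. Of all protein-coding genes 58.4% lay below -0.0086, so most of them were below 0 too. Hist1h1c was the gene above 0, with 48.39 and 31.64 (0.61). Hist1h1t, a testis form, was the lowest of the class at 0.64 and 1.69 (-1.40), values close to the filter. The annotated spans of Hist1h1e and Hist1h2be overlap on the same strand, so their signal there cannot be told apart by strand.

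H2A and H2B form the dimers that flank the central H3 and H4 tetramer. The 3 H2A genes with the highest mean of the libraries had ratios less than 2-fold from 1. Hist1h2ai had 277.47 in labeled and 322.19 in unlabeled RNA (chromosome 13, 21716422 to 21716814, log2 ratio -0.22), Hist1h2an 262.56 and 292.30 (chromosome 13, 21786826 to 21787218, -0.15) and Hist1h2ah 272.18 and 273.81 (chromosome 13, 22035164 to 22035568, -0.0086). The H2A median was -0.12 as deposited and 0.14 after centring, so its side of 0 depends on the scaling. It was 0.19 over the 6 H2A genes that share at most 50% of their 50-base stretches. By chromosome, 12 H2A genes on chromosome 13 ran from -0.53 to 0.094, and the 4 genes on chromosome 3 from 0.24 to 0.46. The split leaves out Hist1h2aa, a testis form also on chromosome 13, and Hist3h2a on chromosome 11, which lay between the 2 ranges at 0.10, and was chosen after its values were seen. The genes on chromosome 3 include Hist2h2aa1 and Hist2h2aa2, which are copies of each other, at 71.65 and 60.73 for the former and 65.29 and 55.38 for the latter.

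Hist1h2aa (chromosome 13, 23934462 to 23934851) had the highest ratio of the H2A class, with 17.43 in labeled and 5.89 in unlabeled RNA (1.57). Its divergent neighbour Hist1h2ba, also known as a testis form, had 105.61 and 181.60 (-0.78). The pair thus lay on opposite sides of 0, as deposited and after centring. Of all 65 genes only Hist1h3d and Hist4h4 had higher ratios than Hist1h2aa.

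The 3 most abundant H2B genes by the mean of the libraries had the highest means of the 65 histone genes per length, and most H2B genes were lower in labeled RNA. Hist1h2bl had 838.56 in labeled and 1984.37 in unlabeled RNA (chromosome 13, 21715763 to 21716143, log2 ratio -1.24). Hist1h2bn had 870.87 and 1595.53 (chromosome 13, 21754123 to 21754503, -0.87), and Hist1h2bp 755.49 and 1585.71 (chromosome 13, 21787461 to 21789213, -1.07). The H2B median was -1.07 as deposited and -0.82 after centring. The 13 H2B genes of the chromosome 13 cluster ran from -1.25 to -0.76, a spread of less than 2-fold. Hist1h2bg was the lowest of them, with 445.80 and 1059.70 (chromosome 13, 23571396 to 23572013, -1.25).

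Outside that cluster the H2B genes had lower levels and a wider range. Hist3h2ba on chromosome 11 (58948920 to 58949533) had 5.77 in labeled and 28.99 in unlabeled RNA, a log2 ratio of -2.33 that was the lowest of the 65 genes. No 50-base stretch of it occurs in another protein-coding gene. Hist2h2be on chromosome 3 had 5.98 and 5.91 (0.017) and was the 1 H2B gene not below 0. Hist2h2bb, also on chromosome 3, had 36.81 and 85.19 (-1.21).

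Many H2A and H2B genes lie head to head and share the DNA between their starts. Of 12 such pairs, with 175 to 305 bases between the annotated starts, the H2B gene had a lower ratio than its H2A partner in 12. Any pairing of these classes within a chromosome would give this, so the count restates the class difference. On chromosome 13 the highest H2B gene was at -0.76 and the lowest H2A gene at -0.53, and on chromosome 3 these were at 0.017 and 0.24. The difference in log2 ratio, H2B minus H2A, had a median of -0.83 and ran from -2.35 in the testis pair to -0.35 in Hist1h2bn and Hist1h2ak. Since it is taken within a pair and between the same libraries, it does not depend on the scaling. In the 11 pairs without Hist1h2ba and Hist1h2aa it was below 0 in 11. On chromosome 3 the pair of Hist2h2be and Hist2h2ac differed by -0.44, with Hist2h2ac at 43.37 and 31.51 (0.46).

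H3 and H4 form the central tetramer of the nucleosome. H3 genes had higher values in labeled than in unlabeled RNA in 12 of 12 genes, as deposited and after centring. Most of the 1041 other genes under 1000 bases were above 0 as well, with quartiles of 0.089 and 1.65. Hist1h3h had 373.23 in labeled and 173.51 in unlabeled RNA (chromosome 13, 21717659 to 21718069, log2 ratio 1.11). Hist1h3g had 327.99 and 123.64 (chromosome 13, 23535422 to 23535951, 1.41), and Hist1h3d had 276.21 and 85.20 (chromosome 13, 23575763 to 23577011, 1.70). The H3 median was 1.09, and 12 of 12 H3 genes had a ratio above that of every H2B gene. The highest H2B gene was Hist2h2be at 0.017, and 59.3% of all protein-coding genes lay below that value. The lowest H3 gene was Hist2h3b on chromosome 3, with 70.17 and 59.50 (0.24).

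The H3 genes lie in several places, with similar medians. In the cluster on chromosome 13 the 2 genes of the group with the lower coordinates, Hist1h3h and Hist1h3i, had a median of 1.13 and the 7 genes of the other group a median of 1.08. The 3 H3 genes on chromosome 3 had a median of 0.99. Other annotated genes overlap Hist2h3c1, Hist2h2aa1 and Hist2h2bb on the same strand of that chromosome and Hist2h3b on the other, and elsewhere Hist1h1e, Hist1h2be, Hist1h2ac and Hist3h2a on the same strand and Hist1h4b on the other. Every H2A gene overlaps an annotated gene on the other strand. The values of these genes are uncertain for that reason. Within 1 stretch of chromosome 13, Hist1h3d, the H3 gene with the highest ratio, lay at 1.70. The histone genes next to it are Hist1h2ad (-0.25) and Hist1h4d (-0.89). Beyond these lie the H2B genes Hist1h2bf, with 517.62 and 877.79 (-0.76), and Hist1h2be, with 192.23 and 421.39 (-1.13).

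**Figure D2:**
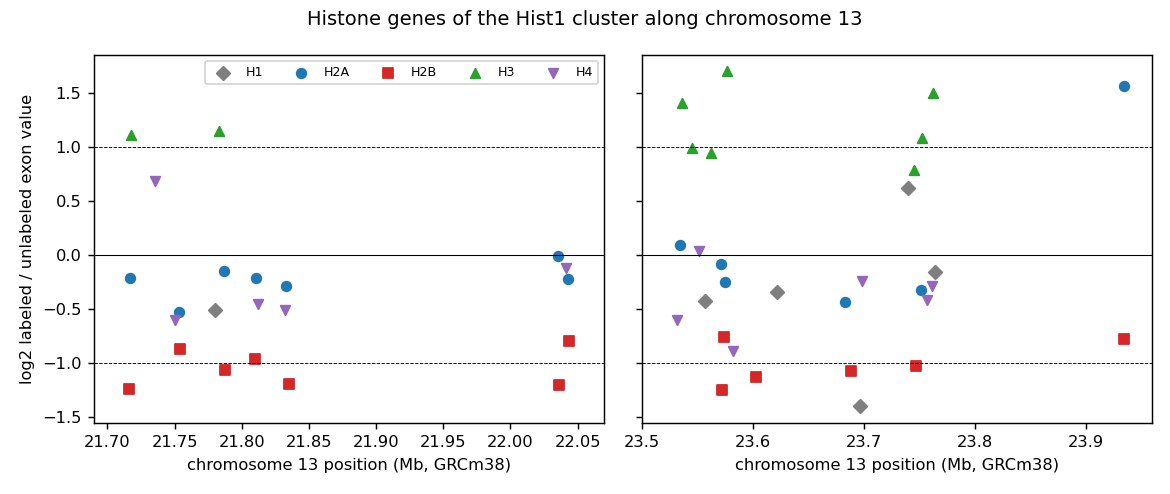
Log2 ratio of labeled to unlabeled exon value of each histone gene on chromosome 13 against its position in Mb (GRCm38), in the 2 groups of the Hist1 cluster, colored by class. H3 genes lie above and H2B genes below their H2A, H4 and H1 neighbours along most of the cluster, and Hist1h2aa at the right end lies at 1.57. Hist1h1t, at -1.40, is the lowest point. Dashed lines mark 2-fold, and centring on the all-gene median would raise each point by 0.26.

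The H4 median was below the H3 median, although single H4 genes were high. Hist1h4k had 324.96 in labeled and 493.46 in unlabeled RNA (chromosome 13, 21750194 to 21750505, log2 ratio -0.60). Hist1h4d had 207.56 and 384.68 (chromosome 13, 23581598 to 23582735, -0.89), and Hist1h4h had 191.74 and 290.71 (chromosome 13, 23531050 to 23531519, -0.60). The H4 median was -0.30 as deposited and -0.046 after centring. As deposited, 58.4% of all protein-coding genes lay below -0.0086. Of the 13 H4 genes, 10 were below 0. The 3 others were Hist1h4f at 34.64 and 33.80 (0.035), Hist1h4j at 33.02 and 20.58 (0.68) and Hist4h4.

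Hist4h4 on chromosome 6 (136801553 to 136804415) had the highest ratio of the 65 genes, with 27.61 in labeled and 4.15 in unlabeled RNA (2.73). Of its 50-base stretches 0.426% occur in another protein-coding gene. The other 12 H4 genes ran from -0.89 to 0.68.

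**Figure D3:**
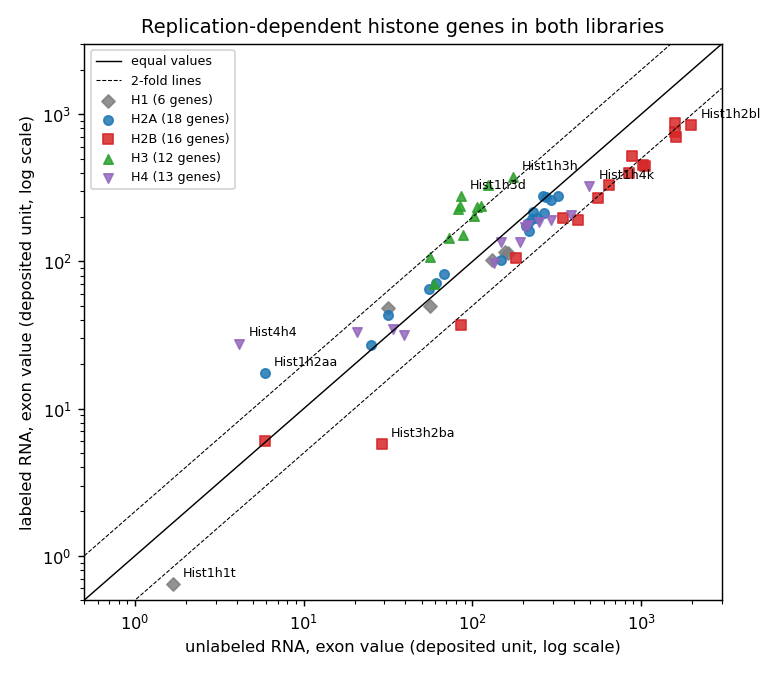
Exon value in labeled RNA against exon value in unlabeled RNA for the 65 histone genes, in the deposited unit on log axes, by class, with a solid line at equal values and dashed lines at 2-fold. H2B genes reach 1984.37 in unlabeled RNA, and most lie along the lower dashed line, with Hist2h2be near the solid line and Hist3h2ba well below the dashed one. Most H3 genes lie along the upper dashed line, with Hist2h3b nearer the solid one. Centring on the all-gene median would move the points up by 0.26 on the log2 scale.

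The transcript models of GENCODE M21 differ in where they end, which bears on what an exon value measures. The paper names an Ensembl release as the reference for its reads, and whether its models end at the same bases was not checked. Of the 70 transcripts, 15 end at the stop codon, 22 hold a stem-loop match in the last 100 bases, 24 hold one further from the end and 9 hold none. The pattern searched on the transcript strand was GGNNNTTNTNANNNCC, of 16 bases, where N is any base. It was found in the last 100 bases of 31.4% of the histone transcripts and 0.178% of all protein-coding transcripts, and anywhere in 65.7% and 4.05%. A poly(A) signal, AATAAA or ATTAAA, was found in the last 50 bases of 27.1% of the histone transcripts and 53.1% of all.

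The stem-loop itself was nearly the same in every class but H4. In 44 genes with a match, it began 21 to 58 bases after the stop codon, with a median of 31.5. The left arm was GGCTC in 32 of the 32 genes of H1, H2A, H2B and H3 with a match, and in 0 of the 12 H4 genes, where it was GGCCC in 10 and GGTCC in 2. The most frequent form of the 16 bases was found in 24 genes. Matches are shown for genes of each class with high or extreme values, with the 16 bases in capitals and up to 7 bases on either side, from the GENCODE transcripts on GRCm38.
Hist1h1d, chr13:23555787-23555802, plus strand: ctcaaacGGCTCTTTTCAGAGCCacccaca
Hist1h2ab, chr13:23751572-23751587, plus strand: aaacaaaGGCTCTTTTCAGAGCCacccaca
Hist1h2bp, chr13:21787923-21787938, plus strand: acacaaaGGCTCTTTTCAGAGCCacccaca
Hist3h2ba, chr11:58949349-58949364, plus strand: acccaaaGGCTCTTTTCAGAGCCaccttcc
Hist1h3g, chr13:23535889-23535904, plus strand: ctttaaaGGCTCTTCTTAGAGCCacccatc
Hist1h3d, chr13:23576244-23576259, plus strand: ccccaaaGGCTCTTTTCAGAGCCacccccg
Hist1h4d, chr13:23581950-23581965, plus strand: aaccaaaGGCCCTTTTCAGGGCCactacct
Hist4h4, chr6:136803998-136804013, minus strand: ccacaaaGGCCCTTTTCAGGGCCcacaaag
Each site lies in the 3′ untranslated part of the gene's exon. Hist3h2ba and Hist1h3d, both named for their extreme ratios, carry the same 16 bases and had log2 ratios of -2.33 and 1.70. The 24 genes with this form were not compared as a set. Whether the stem-loop bears on the ratio was not tested.

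Genes were next set side by side by where the stem-loop lies in the annotated model. The 22 genes whose most abundant model holds a match in the last 100 bases had a median log2 ratio of -0.27. The 43 without had -0.22, and centring turned these to -0.014 and 0.041. Of the 43, 22 hold a match further from the end, 14 end at the stop codon and 7 hold none. The split thus follows where models end, and an effect of the stem-loop was not tested. Over the 34 genes that share at most 50% of their 50-base stretches, a restriction chosen after seeing the data, the medians were 0.25 over 6 genes with such a match and -0.27 over 28 without, so the first changed sign. Among models that end at the stop codon, the 5 H2B genes ran from -1.24 to -0.78 and the 2 H3 genes from 1.11 to 1.15. Among models with a match in the last 100 bases, the 5 H2B genes ran from -1.21 to -0.76 and the 4 H3 genes from 0.79 to 1.49.

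4sU replaces uridine, so the number of uridines in a transcript bears on how readily it is pulled down. The median uridine share was 17.1% in H2B, 19.7% in H3, 15.0% in H2A, 20.6% in H4 and 20.3% in H1 models. The median number was 76 in H2B, 127.5 in H3, 69 in H2A, 104 in H4 and 266.5 in H1. Among models of the coding part alone, Hist1h2bl held 49 uridines in 381 bases and Hist1h3h 57 in 411 bases.

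Across the 65 genes Spearman's correlation of the log2 ratio was 0.14 with the number of uridines, 0.14 with their share, 0.20 with transcript length and 0.10 with GC content. Across the 14062 other protein-coding genes it was -0.30 with the number of uridines and -0.30 with length. For the 1041 other genes under 1000 bases these were -0.13 and -0.082, and for the 439 other single-exon genes -0.15 and -0.18. These are descriptions over genes of the same libraries, and genes are not replicates. The part of length and uridines in the difference between classes was not tested.

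A few H2B genes have a spliced transcript, so that introns could be read in both libraries. The 6 histone transcripts with an intron value were of Hist1h2bc, Hist1h2be (2 transcripts), Hist1h2bp, Hist1h2bq and Hist1h2br. Their intron to exon ratio was low. It ran from 0.0205 to 0.256 in labeled RNA with a median of 0.110, and from 0.00119 to 0.0378 in unlabeled RNA with a median of 0.0114. Over 31386 protein-coding transcripts with introns the medians were 0.570 and 0.111, and over 1252 other transcripts of 2 exons they were 0.781 and 0.205. Hist1h2bp, Hist1h2bq and Hist1h2br also have a single-exon transcript that shares the first exon. How reads of that exon were divided is uncertain. The ratios of these genes may therefore not compare like for like with those of other genes.

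In these transcripts the introns and the exons lay on opposite sides of 1. Intron values were 4.06 to 8.19 times as high in labeled as in unlabeled RNA, while exon values were 0.449 to 0.598 times as high. In Hist1h2bc the intron had 8.19 in labeled and 1.00 in unlabeled RNA and the exons had 398.97 and 840.97. In Hist1h2br the intron had 33.75 and 7.79 and the exons of the spliced form had 267.84 and 519.80. The introns of all protein-coding transcripts had a median fold of 3.98, so that higher intron values in labeled RNA were general.

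For 3 of these genes a spliced and a single-exon transcript could be compared, and both were lower in labeled RNA, as deposited and after centring. For Hist1h2bp the 2-exon transcript had 320.07 in labeled and 712.58 in unlabeled RNA (-1.15) and the single-exon transcript 435.42 and 873.13. For Hist1h2bq these were 118.74 and 198.41 (-0.74) against 211.27 and 444.02 (-1.07), and for Hist1h2br the single-exon transcript had 181.65 and 508.21 (-1.48) where the spliced one had -0.96. The forms share their first exon, and Hist1h2bq and Hist1h2br are near-identical copies, so how their reads were divided is uncertain.

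Promoters of histone genes hold short shared elements. RefSeq promoters (GRCm38.p6, 250 bases before to 50 after the start) were matched for 59 of the 65 genes and searched on both strands. CCAAT was found in 84.7% of them and 37.4% of all 32851 promoters, TATAAA in 59.3% and 13.6%, and the octamer ATTTGCAT, which binds POU factors such as OCT1, in 20.3% and 1.74%. CCAAT was found in 6 of 6 H1, 17 of 17 H2A, 14 of 14 H2B and 10 of 10 H3 promoters, and in 3 of 12 H4 promoters. These counts cover the whole window, and in Hist2h3c1 and Hist2h3c2 no CCAAT lay wholly before the start. The octamer was found in 7 of 17 H2A and 5 of 14 H2B promoters, and in 0 of the H1, H3 and H4 promoters. A match describes the letters of the window and not the binding of a factor.

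The 150 bases before the start are shown for a gene with a low ratio, one with a high ratio and the most abundant H4 gene, with CCAAT, the octamer and TATAAA on either strand in capitals.
Hist1h2bg, chr13:23571250-23571399, plus strand: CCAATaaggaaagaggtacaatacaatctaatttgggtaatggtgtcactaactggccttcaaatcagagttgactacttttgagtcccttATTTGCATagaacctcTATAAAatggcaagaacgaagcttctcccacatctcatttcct
Hist1h3d, chr13:23575613-23575762, plus strand: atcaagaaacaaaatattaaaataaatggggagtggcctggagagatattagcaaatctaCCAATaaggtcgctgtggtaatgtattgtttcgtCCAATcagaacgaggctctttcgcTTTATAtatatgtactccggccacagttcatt
Hist1h4k, chr13:21750554-21750703, minus strand: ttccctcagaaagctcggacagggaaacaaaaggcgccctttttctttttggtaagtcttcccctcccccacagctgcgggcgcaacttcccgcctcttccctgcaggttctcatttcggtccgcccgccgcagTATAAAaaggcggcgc
The H2A and H2B genes of a pair share such a stretch, and their ratios are given above for the 12 pairs. Whether a promoter element bears on the ratio was not tested.

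The genes listed here as replication-independent histone genes supply histone variants, most of them not tied to S phase. Of 14 such genes 12 entered, with a median log2 ratio of -0.36, which was -0.16 over the 14 with a pseudocount of 1 or 0.1. At least 2-fold lower in labeled RNA were 3 and at least 2-fold higher 2, near the 22.7% and 17.4% of all genes. H1fnt, 1 of the 2 higher genes, was above 1 only in labeled RNA, at 11.25 against 0.70, and entered through that library. H3f3a and H3f3b, which encode H3.3, had 1790.54 and 2871.24 (-0.68) and 1435.20 and 1729.72 (-0.27), below the ratio of each of the 12 replication-dependent H3 genes. H2afz, which encodes H2A.Z, had 11402.5 in labeled and 15634.8 in unlabeled RNA (-0.46). H2afx, whose product marks DNA breaks when phosphorylated, had 151.96 and 157.96 (-0.056), within the range of the H2A genes.

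Genes that make, process and remove histone RNA, and histone chaperones, were read beside all genes, of which 22.7% were at least 2-fold lower, 17.4% at least 2-fold higher and the median was -0.26. Of 13 genes of histone transcription and 3′ end formation, 4 were at least 2-fold lower and 0 higher, with a median of -0.70. Slbp had 582.88 in labeled and 736.80 in unlabeled RNA (-0.34), and Npat, the cyclin E target that activates histone genes, had 77.21 and 153.50 (-0.99). Casp8ap2, a partner of NPAT at histone genes, had 329.84 and 705.75 (-1.10), and Srrt, which binds the cap-binding complex, had 500.12 and 880.30 (-0.82). Of the 9 decay genes listed 7 were analysed here, with a median of -0.97; 3 were at least 2-fold lower and 1 higher, against the same 22.7% and 17.4% of all genes. The exonuclease gene Xrn1 had 181.92 in labeled and 355.48 in unlabeled RNA (-0.97). The genes of the exosome nucleases, Exosc10 and Dis3, had 143.47 and 306.40 (-1.09) and 134.01 and 263.41 (-0.97). Lsm1, of the ring that binds RNA 3′ ends, was the higher one with 83.57 and 22.44 (1.90).

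Of 19 histone chaperone genes 4 were at least 2-fold lower and 0 higher, against 22.7% and 17.4% of all genes, with a median of -0.63. Nasp, which holds H3 and H4 before they reach DNA, had 6096.98 in labeled and 6515.49 in unlabeled RNA (-0.096). Atrx, which acts with Daxx to place H3.3, had 4245.34 and 7742.10 (-0.87), and Hat1, which acetylates new H4, had 2076.01 and 3211.25 (-0.63). After centring the medians of these lists were -0.11 for the replication-independent histones, -0.44 for transcription and 3′ end formation, -0.72 for decay and -0.37 for chaperones, where that of the H3 genes was 1.35 and that of the H2B genes -0.82.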

How the data were processed

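Labeled and unlabeled RNA of replicate 1 were compared as deposited. The authors aligned reads to exonic and intronic sequence with STAR 2.5.0 and quantified them with RSEM. The deposited signal, called TPM by the authors, sums to 10 times a TPM total in each column. Whether reads were assigned by strand is not given in the sources used here. Exon values of the protein-coding transcripts of a gene were summed. Genes with a mean above 1 and both values above 0 entered, and the log2 ratio used no pseudocount. Called means at least 2-fold. No test was made, with 1 library for each kind of RNA. Members and lists were chosen with earlier results of these data known. Named genes were the 3 most abundant of each class by the mean of the libraries, the 3 highest and 3 lowest ratios at a mean of at least 10, transcripts with introns, and for the other gene lists the 3 most abundant genes and Slbp, H3f3a, H3f3b, H2afz, H2afx and Npat. Cell type markers are given by sums and leading genes. Other genes named were chosen after their values were seen. Shared sequence was counted as 50-base stretches of a transcript found in another protein-coding gene. Stem-loops were searched within the annotated transcripts; the genome past their ends was not used here. Alternatives were other filters, pseudocounts of 1 and 0.1, centring, transcripts in place of genes, all biotypes, single-exon members and subtraction of leakage. Python 3.11.15, numpy 2.4.6, pandas 2.3.3 and matplotlib 3.10.9 were used.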

Additional observations from a re-analysis of the deposited data

How the results depend on the processing

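No paired analysis was possible because each kind of RNA has 1 library and no test was made. Without replicates or read counts, a change in log2 of under 0.1, or in a count of under 1.5 times, was read as no change. The medians and counts of the histone genes and their classes were recomputed under 13 alternatives, and the medians of H2B, H3, H1 and H4 kept their sign in each.

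Centring on the all-gene median gave medians of 0.011 over all histone genes, -0.13 for H1, 0.14 for H2A, -0.82 for H2B, 1.35 for H3, -0.046 for H4, -0.014 with a stem-loop near the end and 0.041 without, and 2 genes at least 2-fold lower. Subtracting leakage of 0.1426 times the unlabeled value gave -0.51 over all, -0.69 for H1, -0.36 for H2A, -1.59 for H2B, -0.58 for H4, -0.54 with and -0.48 without a stem-loop near the end, and 17 genes at least 2-fold lower, against 35.5% of all genes. Both follow from the construction of the setting.

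The other alternatives named here were chosen after seeing the data, except those of the share. With leakage of 0.05 the H2B median was -1.23. With the 34 genes that share at most 50% of their 50-base stretches, 7 were at least 2-fold lower and 5 higher, since fewer genes entered. These were 20.6% and 14.7% of the 34 genes, against 22.7% and 17.4% of all genes. The medians there were 0.19 for H2A, 1.49 for H3 and 0.25 with a stem-loop near the end (-0.27 without), where the cause was not tested. The H2A median and the one with a stem-loop changed sign there. The histone share of 0.454% in labeled and 0.503% in unlabeled RNA became 0.162% and 0.214% of exon values of all transcripts, 0.137% and 0.201% of exon and intron values, 0.411% and 0.436% with single-exon transcripts alone, and 0.181% and 0.240% with all biotypes summed, by the construction of these shares. Leaving out testis genes or models that end at the stop codon moved no class median by 0.1 or more. Without the latter 6 of 51 genes were at least 2-fold higher, where 9 of 65 were before. These were 11.8% and 13.8% of the genes, both below the 17.4% of all genes.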

Other observations

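Some transcripts of the histone clusters fall outside the protein-coding set. The unprocessed pseudogene Hist1h2aj (chromosome 13, 21721457 to 21721808) had an exon value of 271.81 in labeled and 246.05 in unlabeled RNA, within the range of the H2A genes in both libraries. The processed pseudogene Hist1h2al, also on chromosome 13 but at 51202727 to 51203065, had 31.89 and 18.80. Next to Hist3h2ba on chromosome 11, the pseudogene Hist3h2bb-ps (58954048 to 58954512) had 7.89 in labeled and 27.35 in unlabeled RNA, close to the 5.77 and 28.99 of Hist3h2ba. How reads were divided between such copies is uncertain.

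Transcripts annotated as targets of nonsense-mediated decay were present for Hist1h2bq, with 110.99 in labeled and 186.54 in unlabeled RNA, and for Hist1h2br, with 121.32 and 226.87. A processed transcript of Hist1h2be had 5.82 in labeled RNA and was listed at 0 in unlabeled RNA. Among the replication-independent histones, H1fnt, a form of spermatids, had 11.25 in labeled and 0.70 in unlabeled RNA, and H2afv, which encodes a second form of H2A.Z, had 522.84 and 194.39.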
